A study of Mus musculus with 4 samples.

Results

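The genes described here are 57 mouse genes of DNA repair, from homologous recombination and the Fanconi anemia pathway to mismatch, excision and end-joining repair and the checkpoint kinases. They were taken by name from a list, which was chosen with earlier results of these data known. Each was found on the array through the gene name that the array files give to a probe. They had 78 of the 55681 non-control probes, and 57 of the 31982 gene names. The cells were NIH3T3, a line of mouse embryonic fibroblasts, that expressed the epidermal growth factor receptor EGFR in its wild-type form or as a deletion mutant. Each group had 2 arrays of RNA from cells at steady state, with no treatment given in the labels. How much of the receptor is deleted, its species and the promoter that drove it are not in the labels, which also do not say whether a group was 1 clone or a pool. They state separate cDNA preparations and not separate cultures, so the p-values measure a spread between arrays that may be technical. The question that the comparison addresses is how expression differs between cells with the 2 forms of the receptor.

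Cells repair broken DNA by joining the ends directly or by homologous recombination, which copies the sister chromatid and so works in S and G2 phase. In recombination the MRE11 complex and its partners trim the break, BRCA1 with BARD1 and PALB2 brings BRCA2 to it, and the broken strand then invades the intact copy. The Fanconi anemia proteins act where a crosslink ties both strands together and stops a replication fork: a core complex attaches ubiquitin to FANCD2 and FANCI, and recombination then finishes the repair. Mismatch repair corrects copying errors, base excision repair replaces single damaged bases, and nucleotide excision repair cuts out bulky lesions such as those made by ultraviolet light. ATM, ATR and the CHEK kinases signal damage to the cell cycle. Transcripts of many recombination, Fanconi and mismatch repair genes are known to rise in proliferating cells through E2F transcription factors.

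Each value below is the level of a probe, given as the log2 of its processed signal minus the 75th percentile of its array, so that 0 is the signal at that percentile. Levels are compared between arrays for the same probe and never between probes. A gene was tested through its brightest probe among those detected above background on each array of one or the other group, and 18093 features (gene names or unnamed probes) were tested together. The arrays of a group correlated at 0.9976 for wild type and 0.9968 for deletion mutant, against 0.9605 to 0.9611 between groups. On each array 42.9 to 46.9% of probes stood well above background, and no probe was saturated. All 4 arrays lay on 1 slide with the wild-type arrays in 1 column and the deletion-mutant arrays in another, so the column on the slide and the group cannot be told apart. The brightest probe for mouse Egfr itself read 0.10 and 0.13 on the wild-type arrays and was not well above background on the deletion-mutant arrays, at least 11.5-fold lower (limma adjusted p = 0.000146). The array held 3 Egfr probes, and only the brightest is given here. Whether it reads bases that the mutant lacks cannot be told from the labels, so the value is for this probe and not for the whole transcript. In RNA from a bulk culture, more cells in a phase of the cycle and more RNA per cell cannot be told apart.

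Most of the repair genes rose in deletion-mutant cells. Of the 57 genes, 54 could be tested, and all 54 were well above background on all 4 arrays. Of these, 45 were higher (83.3%), 4 were lower and 5 did not pass a limma adjusted p of 0.05 over all features. The background is large in this comparison: of all features 34.6% were higher and 24.2% were lower at the same threshold, 58.8% in either direction. In 17 of the 54 genes the rise was at least 2-fold, against 5.94% of all features, and none of the 54 fell by that much, against 7.46%. Both deletion-mutant arrays lay above both wild-type arrays for 47 genes, against 46.4% of features. The median log2 fold change of the tested repair genes was 0.61 against 0.07 for all features, and single genes ran from -0.50 to 1.88.

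**Figure D1:**
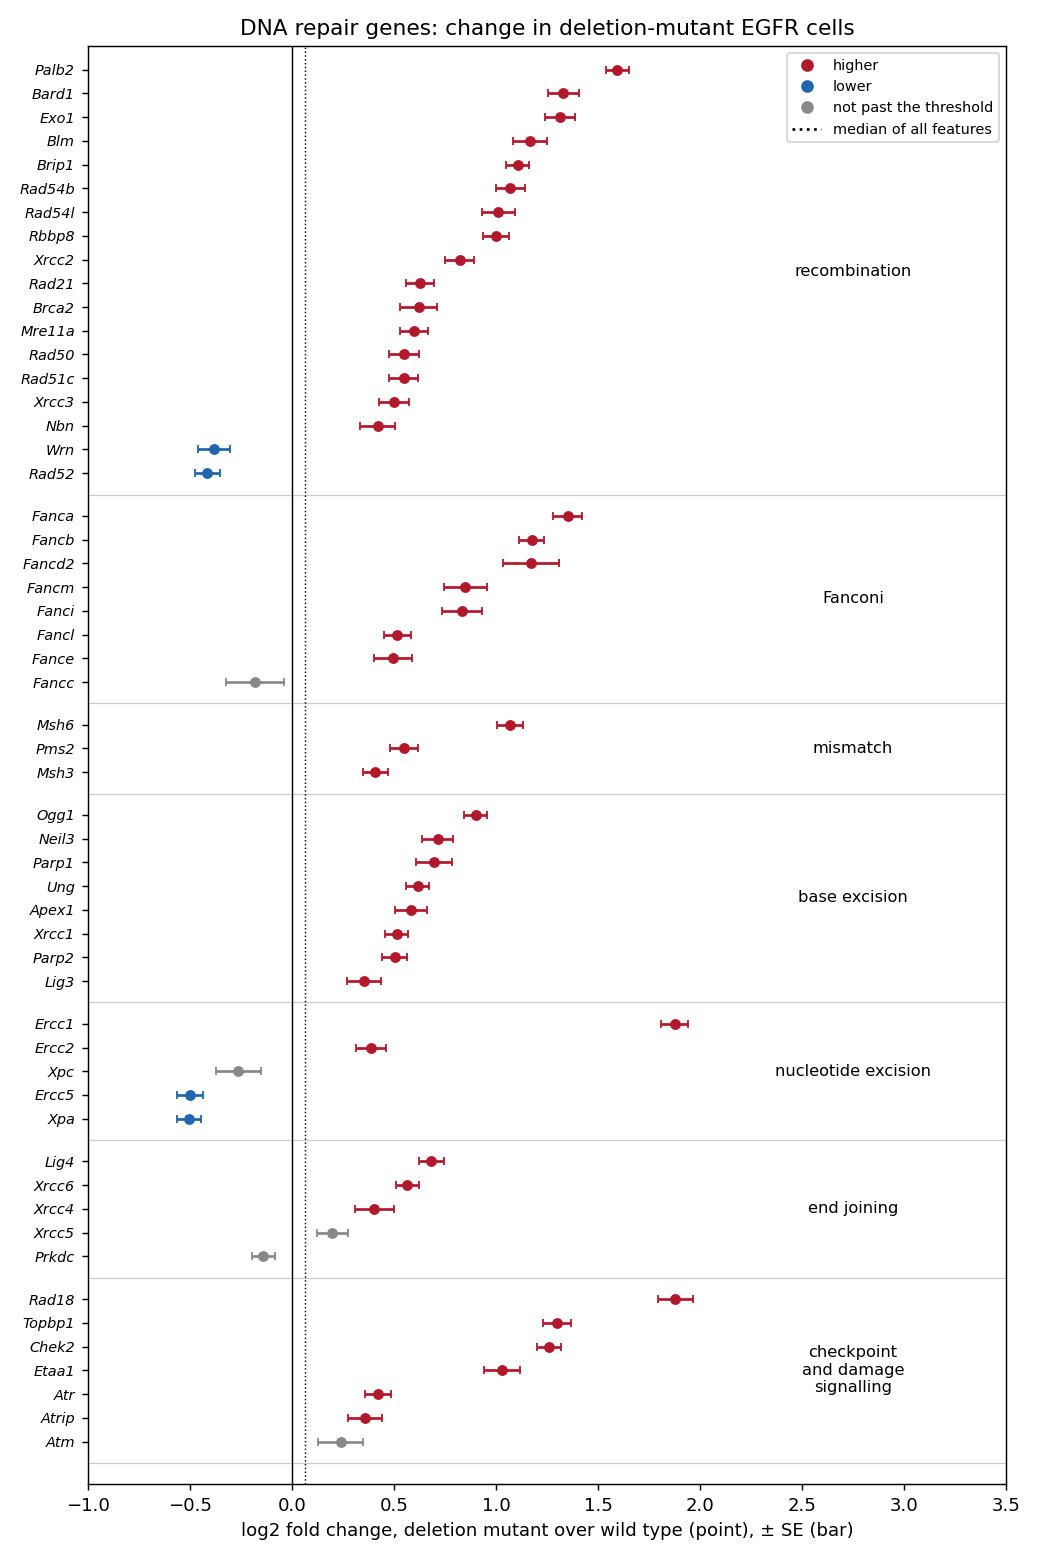
Log2 fold change of each of the 54 tested repair genes (deletion mutant over wild type, horizontal axis), grouped by repair role, with bars of ± 1 SE from the limma fit on 2 arrays per group. Red points are higher, blue points lower and grey points not past the adjusted p of 0.05; the dotted line at 0.07 is the median of all features, and 45 points are red and 4 blue.

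**Figure D2:**
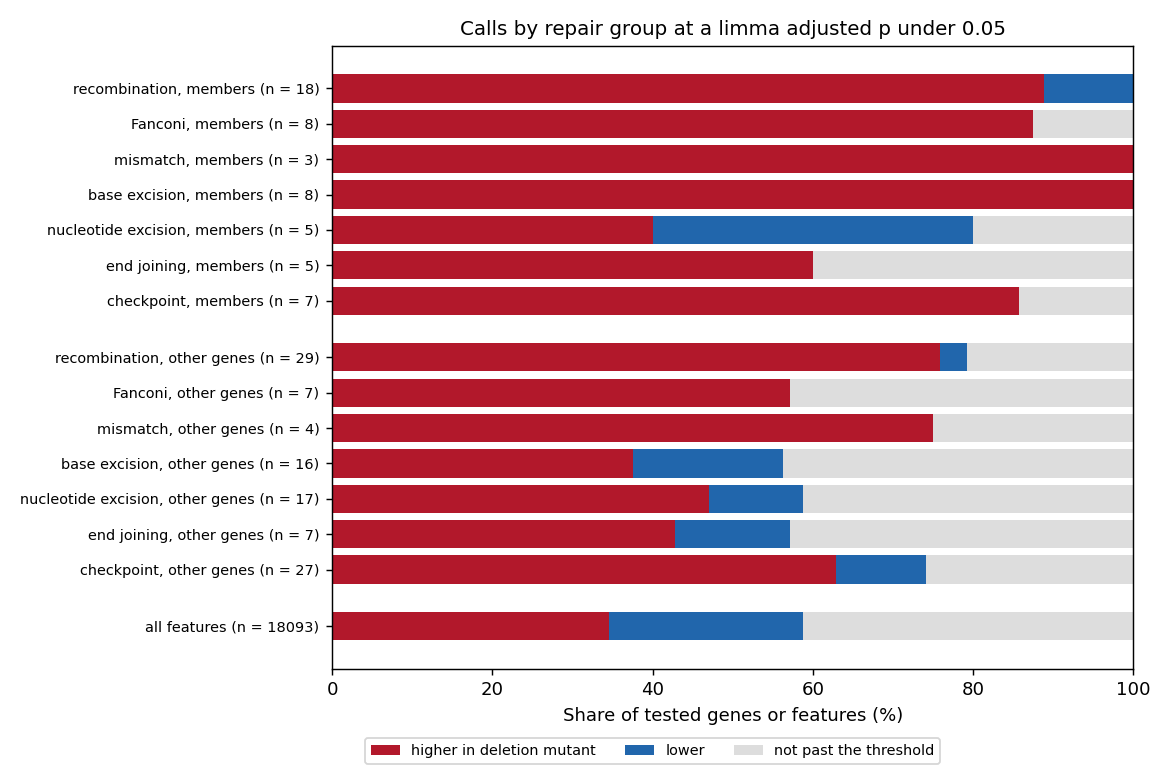
Share of tested genes (%, horizontal axis) that were higher, lower or not past the threshold in each repair group, for the 57-gene list, for other genes of the same groups and for all 18093 features. Base excision and mismatch genes of the list reach 100% higher, nucleotide excision genes 40% higher and 40% lower, and all features 34.6% higher.

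The groups differed in their counts, which stand beside 34.6% higher and 24.2% lower among all features. Among the recombination genes 16 of 18 tested were higher and 2 lower, with a median of 0.73. Of the Fanconi genes 7 of 8 were higher (median 0.84), of the mismatch genes 3 of 3 (0.55), of the base excision genes 8 of 8 (0.60), and of the checkpoint and damage signalling genes 6 of 7 (1.03). The end-joining genes had 3 higher among 5 (0.40). Nucleotide excision repair had 2 higher and 2 lower among 5 (median -0.26). These are counts in small groups, and the difference between one group and another was not tested.

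As E2F factors are known to control many S-phase genes, each promoter (from 250 bases before to 50 after the transcription start, RefSeq, GRCm38.p6) was searched on both strands for the E2F-type motifs TTTCCCGC and TTTGGCGC. Of the 57 genes 46 had a promoter entry, and 8 of the 46 held a motif (17.4%), against 307 of 9130 tested protein-coding genes with a promoter (3.36%) and 404 of all 17492 (2.31%). The 8 genes were Brca2, Bard1, Rad51c, Fancg, Msh3, Msh6, Xrcc6 and Chek2. The promoters of the 3 among them that rose at least 2-fold (Bard1, Chek2 and Msh6) are printed to show where the motif sits, 5′ to 3′ on the gene's strand, with the motif in capitals.

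The Bard1 promoter lies at chr1:71102923-71103222 on the minus strand, and its motif starts at position -209 from the start site. The Chek2 promoter lies at chr5:110839733-110840032 on the plus strand and holds the motif on the opposite strand, at position -152. The Msh6 promoter lies at chr17:87974800-87975099 on the plus strand, and its motif starts at position 16, inside the transcript.
Bard1: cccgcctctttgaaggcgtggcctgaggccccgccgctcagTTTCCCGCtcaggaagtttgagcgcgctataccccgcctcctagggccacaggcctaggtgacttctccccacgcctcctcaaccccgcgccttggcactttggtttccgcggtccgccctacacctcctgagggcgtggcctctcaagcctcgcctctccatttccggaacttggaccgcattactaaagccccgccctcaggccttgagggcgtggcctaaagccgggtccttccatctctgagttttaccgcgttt
Chek2: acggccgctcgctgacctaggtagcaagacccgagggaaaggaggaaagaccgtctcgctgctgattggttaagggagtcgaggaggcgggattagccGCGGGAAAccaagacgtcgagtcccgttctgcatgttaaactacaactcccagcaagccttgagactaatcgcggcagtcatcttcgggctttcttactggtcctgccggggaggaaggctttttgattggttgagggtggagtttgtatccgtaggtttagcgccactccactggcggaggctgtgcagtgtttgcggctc
Msh6: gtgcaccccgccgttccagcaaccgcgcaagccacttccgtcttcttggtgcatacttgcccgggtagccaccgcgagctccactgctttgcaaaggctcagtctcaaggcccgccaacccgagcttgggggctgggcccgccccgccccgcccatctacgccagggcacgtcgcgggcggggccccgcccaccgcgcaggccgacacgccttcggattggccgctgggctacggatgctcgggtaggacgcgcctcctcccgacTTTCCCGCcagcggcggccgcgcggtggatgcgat

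The motif was present in 3 of the 13 promoters of genes that rose at least 2-fold (23.1%), in 4 of the 24 of genes that rose by under 2-fold (16.7%), and in 0 of the 3 of genes that fell. None of the 8 E2F-type matches overlapped a match of the 2 other motifs searched. The CHR-type motifs TTTGAA and TTCGAA, which mark genes of late cell cycle phases, were in 5 of 46 (10.9%) against 16.2% of tested genes. CCAAT, the site of the factor NF-Y, was in 26 of 46 (56.5%) against 43.4%. These matches are letters in a window of 300 bases, and binding was not measured here.

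Brca1 itself, the partner of Bard1 in the ubiquitin ligase that directs recombination, was close to the limit of detection. The array held 1 probe for it, over chr11:101359283-101363319 (mm9, minus strand), a span longer than the probe's 60 bases. Its sequence is shown because the array sees this gene through these bases alone.
Brca1: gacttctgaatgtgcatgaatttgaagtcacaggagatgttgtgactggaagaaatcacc
Wild-type arrays gave it processed signals of 6.23 and 7.93 intensity units, and deletion-mutant arrays gave 46.4 and 30.2. It was well above background on only 1 deletion-mutant array, so it was left out of the test and no fold is given. With no filter on dim probes its limma adjusted p was 0.0253.

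Brca2 and the partners of the BRCA proteins rose. Palb2, which bridges BRCA1 and BRCA2, had wild-type levels of -2.84 and -2.87 and deletion-mutant levels of -1.25 and -1.26. Bard1 had 0.87 and 1.02 against 2.25 and 2.29. The groups did not overlap for either gene, a separation in this direction that 46.4% of all features share. The rises were 3.02-fold for Palb2 (1.60 ± 0.055 SE on the log2 scale, limma adjusted p = 0.000309) and 2.51-fold for Bard1 (1.33 ± 0.076, adjusted p = 0.000735). Under normexp background correction the rise of Palb2, a dim probe, was 1.87-fold. Brip1, the helicase that binds BRCA1 and is also a Fanconi gene, rose 2.15-fold (adjusted p = 0.000612). Brca2, which acts after end resection, went from 0.70 and 0.66 to 1.20 and 1.40, a rise of 1.54-fold (limma adjusted p = 0.00585).

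Exo1, Blm and Rbbp8 rose at least 2-fold. Exo1, the nuclease that resects DNA ends and also serves mismatch repair, had 1.56 and 1.69 against 2.97 and 2.91. Blm, the Bloom syndrome helicase that dissolves recombination intermediates, had 0.58 and 0.75 against 1.82 and 1.85. The groups did not overlap for either gene, a separation in this direction that 46.4% of all features share. The rises were 2.48-fold for Exo1 (limma adjusted p = 0.000708) and 2.25-fold for Blm (adjusted p = 0.00109). Rbbp8, which encodes the resection factor CtIP, rose 2.00-fold (adjusted p = 0.000873). The MRE11 complex rose by under 2-fold: Mre11a by 1.51-fold, Rad50 by 1.46-fold and Nbn by 1.34-fold (limma adjusted p = 0.0149).

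The chromatin remodellers Rad54b (2.10-fold, limma adjusted p = 0.000968) and Rad54l (2.02-fold, adjusted p = 0.0014) rose at least 2-fold. The recombination genes Xrcc2 (1.77-fold), Rad51c (1.46-fold) and Xrcc3 (1.42-fold) rose by under 2-fold, as did the cohesin subunit Rad21 (1.55-fold). The 2 recombination genes that fell were Rad52 and Wrn. Rad52, the annealing factor, had 0.95 and 1.02 against 0.59 and 0.56 and fell 1.33-fold (limma adjusted p = 0.00603), a call lost with no filter on dim probes (adjusted p = 0.0564). Wrn, the Werner syndrome helicase, had -1.46 and -1.57 against -1.96 and -1.84 and fell 1.30-fold (adjusted p = 0.0163). The call on Wrn was lost without wild-type array 1 (-0.33, limma adjusted p = 0.081) and without deletion-mutant array 1 (-0.32, adjusted p = 0.0541), and that on Nbn was lost without wild-type array 1 (0.33, adjusted p = 0.0559).

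**Figure D3:**
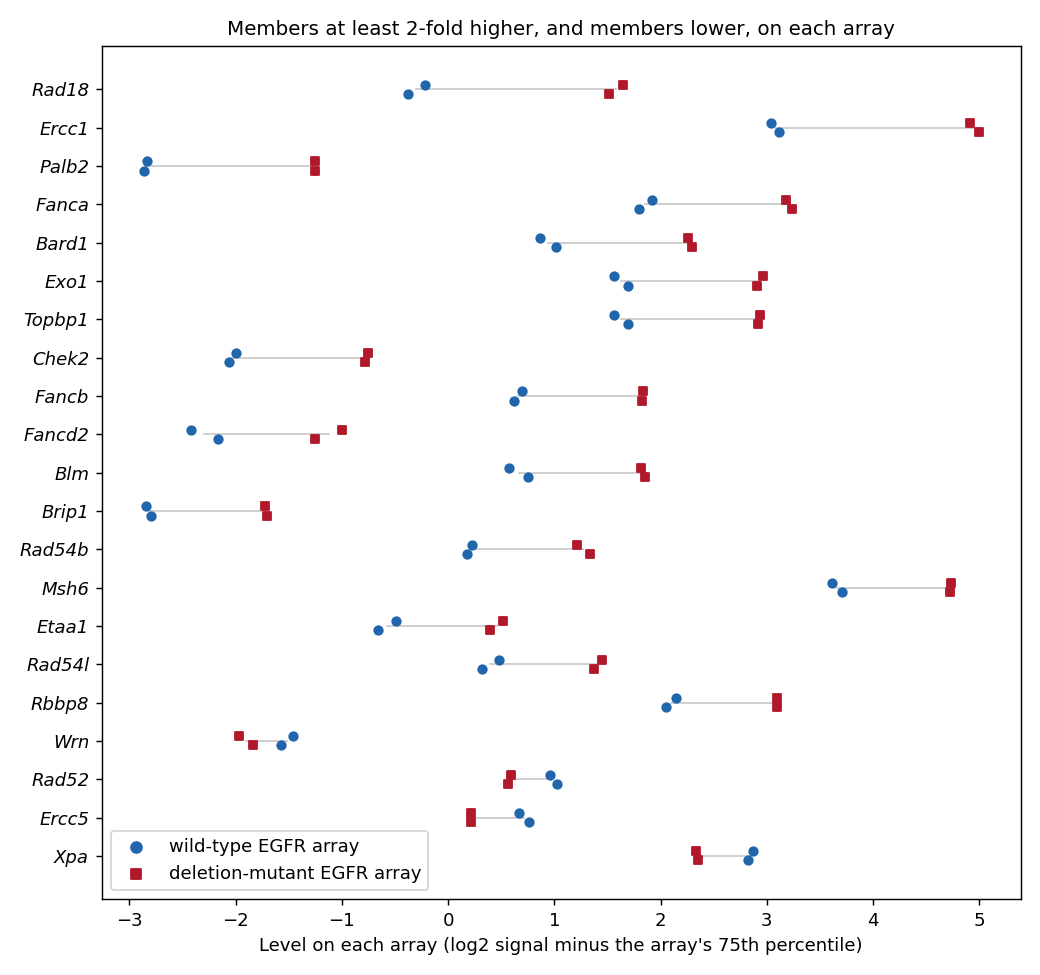
Level on each of the 4 arrays (log2 signal minus the array's 75th percentile, horizontal axis) for the 17 repair genes that rose at least 2-fold and the 4 that fell; circles are wild-type and squares deletion-mutant arrays, and grey lines join the group means. The genes were selected by their calls on these same 4 arrays, which favours a separation of the groups. In each of them the arrays of one group lie on one side of those of the other, as for Rad18 with -0.22 and -0.38 against 1.64 and 1.52.

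Of the 8 Fanconi genes tested, 7 rose and Fancc did not pass. Fanca, a core subunit, went from 1.91 and 1.80 on wild-type arrays to 3.18 and 3.24. Fancb, another core subunit, had 0.70 and 0.62 against 1.84 and 1.82. Fancd2, the protein that receives the ubiquitin, had -2.42 and -2.17 against -0.99 and -1.25. None of the 3 overlapped between groups, as for the 46.4% of all features with both deletion-mutant arrays above. The rises were 2.55-fold (1.35 ± 0.07 SE, limma adjusted p = 0.000612), 2.26-fold (1.18 ± 0.061, adjusted p = 0.000609) and 2.25-fold (1.17 ± 0.136, adjusted p = 0.00328). Fancm, the translocase that recruits the core complex, rose 1.80-fold, from -1.66 and -1.64 to -0.67 and -0.93 (limma adjusted p = 0.00394).

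Fanci, the partner of Fancd2, rose 1.78-fold and Fancl, the ubiquitin ligase of the core complex, 1.43-fold. Fance, which links the core to Fancd2, rose 1.41-fold (limma adjusted p = 0.0125), and that call was lost without wild-type array 1 (0.41, adjusted p = 0.0568). Fancc overlapped between groups, with -1.15 and -1.51 against -1.45 and -1.57 (-0.18 on the log2 scale, limma adjusted p = 0.327). Fancg was near background, with wild-type signals of 35.8 and 36.6 intensity units and deletion-mutant signals of 16.9 and 14. It was well above background on 1 wild-type array alone, and no fold is given (limma adjusted p = 0.031 with no filter).

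The mismatch repair genes rose together. Msh6, which recognises single mismatches and whose promoter is printed above, went from 3.62 and 3.71 on wild-type arrays to 4.73 and 4.73. It rose 2.10-fold (1.07 ± 0.063 SE, limma adjusted p = 0.000772). Pms2, an endonuclease, went from 0.39 and 0.26 to 0.87 and 0.88 (1.47-fold, limma adjusted p = 0.00401). Msh3, which recognises larger loops, went from 1.73 and 1.76 to 2.19 and 2.12 (1.33-fold, adjusted p = 0.00626). Of the 3, Msh6 alone passed 2-fold; the difference between Msh6 and Msh3 was not tested.

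All 8 base excision genes of the list rose, among them 3 of the DNA glycosylases, which remove a damaged base. Ogg1, the glycosylase for oxidised guanine, had 0.86 and 0.85 against 1.78 and 1.74 and rose 1.87-fold (limma adjusted p = 0.000848). Neil3 had -0.02 and 0.05 against 0.67 and 0.80 (1.64-fold, adjusted p = 0.0025). Ung, which removes uracil, had 5.51 and 5.48 against 6.13 and 6.09 (1.53-fold, limma adjusted p = 0.00185). The arrays of the 2 groups were apart in all 3 glycosylases, as in this direction for 46.4% of all features. None of the 8 genes rose 2-fold. Parp1, the main sensor of strand breaks, had 1.81 and 2.01 against 2.60 and 2.61 (1.62-fold, limma adjusted p = 0.00427). Apex1, the endonuclease that cuts at the empty site, rose 1.5-fold, the scaffold Xrcc1 1.43-fold and Parp2 1.42-fold. Lig3, the ligase, rose 1.28-fold (limma adjusted p = 0.0233), a call lost without wild-type array 1 (0.34, adjusted p = 0.104), wild-type array 2 (0.36, adjusted p = 0.0931) or deletion-mutant array 1 (0.26, adjusted p = 0.0636).

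Of the 5 nucleotide excision genes 2 rose (40%) and 2 fell, against 34.6% higher and 24.2% lower among all features. Ercc1, the subunit of the nuclease that cuts on the 5′ side of a lesion and also serves crosslink repair, went from 3.04 and 3.11 on wild-type arrays to 4.91 and 4.99. With 3.67-fold (1.88 ± 0.066 SE, limma adjusted p = 0.000319) it stood with Rad18 above the others of the 54 tested genes, though below Palb2 under quantile normalization. Ercc2, the helicase of TFIIH, whose probe lies 45.4 kb from that of Ercc1 on chromosome 7 (mm9), went from 2.11 and 2.16 to 2.45 and 2.59 (1.31-fold, limma adjusted p = 0.0128). Xpa, which verifies the damage, fell from 2.87 and 2.82 to 2.33 and 2.36 (1.42-fold, limma adjusted p = 0.00323). Ercc5, the nuclease that cuts on the 3′ side, fell from 0.67 and 0.76 to 0.22 and 0.21 (1.41-fold, adjusted p = 0.00413).

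Xpc, which finds the lesion, was 1.17 and 1.43 against 1.08 and 0.99 (-0.26, limma adjusted p = 0.11). Xpc had both deletion-mutant arrays below both wild-type arrays, a separation whose share of all features was not counted. Without wild-type array 1 it passed as lower (-0.39, limma adjusted p = 0.0472). Ercc2 lost its call without wild-type array 1 (0.37, limma adjusted p = 0.0715) or wild-type array 2 (0.41, adjusted p = 0.0566). The counts of 2 higher and 2 lower became 1 higher and 3 lower under quantile normalization or scaling to the detected probes.

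None of the 5 end-joining genes reached 2-fold. Lig4, the ligase of this pathway, had -0.11 and -0.07 against 0.63 and 0.57 and rose 1.61-fold (limma adjusted p = 0.00172). Xrcc6, a subunit of the Ku dimer that binds DNA ends, went from 3.37 and 3.40 to 3.92 and 3.97 (1.48-fold, adjusted p = 0.00235). Xrcc4, the partner of LIG4, went from 0.31 and 0.08 to 0.63 and 0.57 (1.32-fold, limma adjusted p = 0.0248). That call was lost without wild-type array 2 (0.29, adjusted p = 0.0685), deletion-mutant array 1 (0.38, adjusted p = 0.0726) or deletion-mutant array 2 (0.43, adjusted p = 0.0514). Neither the other Ku subunit Xrcc5 (2.46 and 2.57 against 2.66 and 2.77, limma adjusted p = 0.0884) nor the kinase Prkdc (0.44 and 0.46 against 0.33 and 0.30, adjusted p = 0.0967) passed. The groups did not overlap in Xrcc5, which lay above, or in Prkdc, which lay below. Both deletion-mutant arrays lay above both wild-type arrays in 46.4% of all features, so the separation of Xrcc5 is a common one here. The share of features with both below, as for Prkdc, was not counted. Prkdc turned to slightly above 0 under median scaling and with the authors' log2 values.

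Of the 7 checkpoint and damage signalling genes tested 6 rose, and Rad18 with Ercc1 had the largest rises of the 54 genes. The order of these 2 turned without wild-type array 2, with 1.80 for Rad18 and 1.91 for Ercc1 on the log2 scale. It also turned without deletion-mutant array 1 (1.82 for Rad18, 1.92 for Ercc1) and under normexp background correction (1.60 for Rad18, 1.87 for Ercc1). Under quantile normalization Palb2 (1.74) lay above Ercc1 (1.65) and below Rad18 (1.85). Rad18, the ubiquitin ligase that marks PCNA at stalled forks, went from -0.22 and -0.38 on wild-type arrays to 1.64 and 1.52, a rise of 3.68-fold (1.88 ± 0.087 SE, limma adjusted p = 0.00053). A second Rad18 probe at chr6:112594696-112599602 (mm9, minus strand), which does not overlap the first, read -1.32 and -1.26 against 0.70 and 0.69. It is printed because it repeats the difference on other bases of the same gene.
Rad18: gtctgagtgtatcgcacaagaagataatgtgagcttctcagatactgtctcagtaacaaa
Topbp1, which activates ATR, had 1.56 and 1.69 against 2.94 and 2.92 (2.46-fold, limma adjusted p = 0.000646). Chek2, the kinase downstream of ATM, had -2.0 and -2.06 against -0.76 and -0.78 (2.40-fold, adjusted p = 0.000533). Etaa1, the other ATR activator, had -0.49 and -0.66 against 0.52 and 0.40 (2.04-fold, limma adjusted p = 0.00167). All 4 genes rose at least 2-fold with no overlap between groups, while both deletion-mutant arrays lay above in 46.4% of all features.

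The apical kinases themselves did not reach 2-fold. Atr rose 1.34-fold (limma adjusted p = 0.00629) and its partner Atrip 1.28-fold (adjusted p = 0.0225). Atm had -0.48 and -0.52 against -0.40 and -0.12 and did not pass (0.24, limma adjusted p = 0.134). Atrip lost its call without wild-type array 1 (0.27, adjusted p = 0.0742), deletion-mutant array 1 (0.34, adjusted p = 0.0688) or deletion-mutant array 2 (0.38, adjusted p = 0.0546), and Atm passed as higher without deletion-mutant array 1 (0.38, limma adjusted p = 0.0258). Chek1, the kinase downstream of ATR, was not well above background on any array, with signals of 32.1, 26, 27.2 and 15.8 intensity units, and no fold is given.

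Several genes had a second probe. Of 19 genes with more than 1 probe, 15 had at least 2 that passed the filter, and in none of the 15 were probes past the threshold in both directions. Bard1 rose in all 3 of its probes, by 0.81 to 1.70 on the log2 scale, and Xpa fell in both of its own. Among others, 4 further genes had probes that differed in size or sign. Rad54b read 1.07 on its brightest probe and 0.14 (limma adjusted p = 0.606) on the other, and Msh3 read 0.41 and 1.11. Atr read 0.42 and -0.17 (adjusted p = 0.0653), and Fancc -0.18 and 0.25. The second probes of Xrcc2 (0.53, limma adjusted p = 0.307), Lig3 (0.26, adjusted p = 0.122) and Pms2 (0.42, adjusted p = 0.0535) lay above 0 and did not pass. Which transcripts each probe sees was not analysed here.

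**Figure D4:**
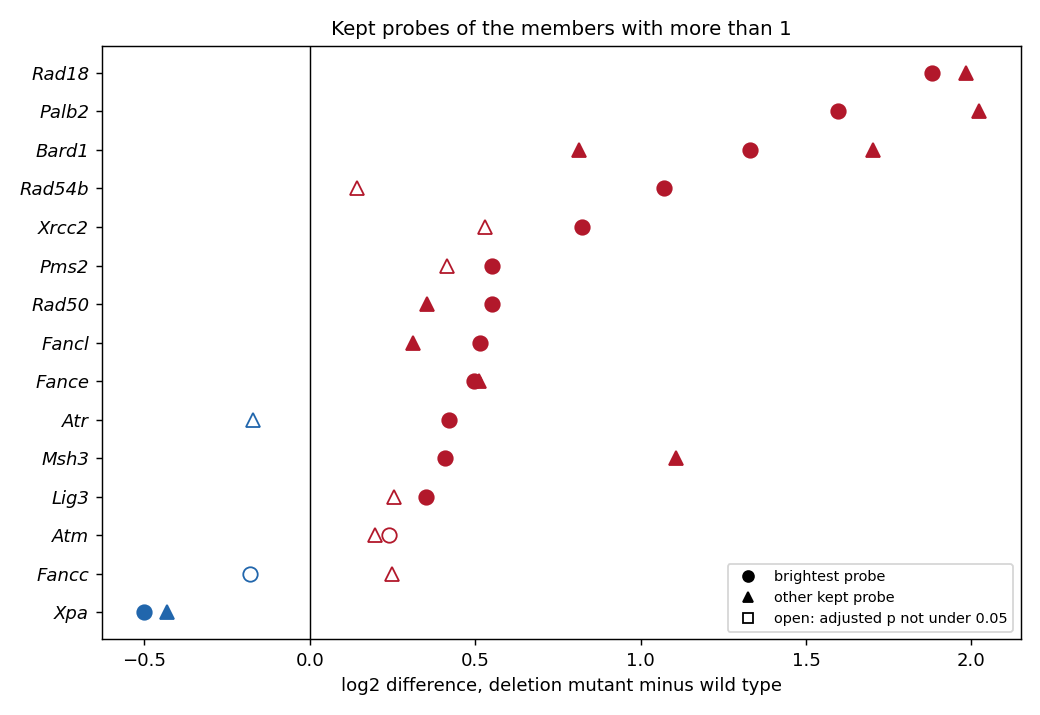
Log2 difference (deletion mutant minus wild type, horizontal axis) of each probe that passed the filter, for the 15 repair genes with more than 1; circles are the brightest probe, triangles the others, filled points passed an adjusted p of 0.05, and red points lie above 0 and blue points below. Both Rad18 points lie near 1.88 and 1.98, while the Rad54b points lie at 1.07 and 0.14 and the Atr points on both sides of 0; the Palb2 triangle and the Bard1 triangle at 1.70 rest on wild-type signals not well above background.

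Further genes of the same pathways, from a second list, also rose more often than they fell. This list too was chosen with earlier results of these data known, so its counts are not independent support. Of 112 further repair genes, 110 were on the array and 107 were tested. Of these, 63 were higher (58.9%, against 34.6% of all features), 10 lower (against 24.2%) and 34 did not pass. The median of the 107 was 0.35, and 14 of them were at least 2-fold higher, against 5.94% of all features. In recombination 22 of 29 were higher and 1 lower, and Recql4, a helicase, rose 2.55-fold (limma adjusted p = 0.000425). Rmi2, the partner of BLM, was not well above background on the wild-type arrays and was at least 2.23-fold higher, which became 1.51-fold under normexp background correction. The single recombination gene past the threshold and lower was Zswim7 (-0.25, limma adjusted p = 0.0405), and that call was lost without any 1 array (adjusted p from 0.0587 to 0.149) and with the replicate number as a block (adjusted p = 0.0747). The counts for the listed and the further genes were not tested against each other.

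In the Fanconi group 4 of 7 further genes were higher and none lower, among them Ube2t, the ubiquitin-conjugating enzyme of the pathway (3.52-fold, or 2.27-fold under normexp), and Faap24 (2.06-fold). Of the further mismatch genes 3 of 4 were higher, among them Pms1 (1.45-fold), a call lost without wild-type array 1 (0.52, limma adjusted p = 0.0642) or wild-type array 2 (0.55, adjusted p = 0.0572). Base excision had 6 of 16 higher (37.5%) and 3 lower, close to the 34.6% and 24.2% of all features. The flap nuclease Fen1 (2.59-fold) and the ligase Lig1 (1.76-fold), which also act in replication, rose most, and Parp3 (1.64-fold) and the endonuclease Apex2 (1.41-fold) fell. The third that fell was the glycosylase Mbd4 (-0.45, limma adjusted p = 0.0124), picked with its values in view. The glycosylases Mutyh (0.53, limma adjusted p = 0.00513) and Tdg (0.36, adjusted p = 0.0488) were higher. The glycosylases Nthl1 (-0.32), Neil1 (0.04), Mpg (0.10) and Smug1 (0.10) did not pass.

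Nucleotide excision had 8 of 17 higher (47.1%) and 2 lower, against 34.6% and 24.2% of all features. Gtf2h2, a TFIIH subunit, rose 2.08-fold and Ercc8 1.68-fold, while Ercc6 fell 1.54-fold and the ultraviolet damage sensor Ddb2 1.45-fold. End joining had 3 of 7 higher (42.9%), near the 34.6% of all features, and 1 lower. Rif1, which protects ends from resection, rose 1.96-fold and Tdp2 1.53-fold, and Nhej1 fell 1.41-fold, a call lost without wild-type array 1 (-0.41, limma adjusted p = 0.0802). Checkpoint and signalling genes had 17 of 27 higher (63%, against the same 34.6%) and 3 lower. The fork protector Tipin rose 2.30-fold and the clamp subunit Hus1 2.03-fold, while Mgmt, which removes alkyl groups from guanine, fell 1.90-fold and the polymerase Poli 1.47-fold.

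Genes of proliferation moved with the repair genes. All 6 proliferation markers were higher in deletion-mutant cells, from 0.74 for Mki67 to 1.40 for Top2a on the log2 scale, with Pcna at 1.14, Mcm2 at 1.19, Ccnb1 at 1.06 and Ccna2 at 0.96. Of 8 fibroblast markers 7 were lower, among them Col1a1 (-1.24) and Pdgfrb (-1.08), and Vim was higher (0.23, limma adjusted p = 0.0448). The call on Vim was lost under scaling to the detected probes, with no filter on dim probes and with every probe tested. It was also lost when any single array was left out. All 8 fibroblast markers were well above background on all 4 arrays. Of the defining markers of other cell types, Epcam, Krt18, Krt19 and Cdh1 of epithelium, Ptprc of leukocytes, Cdh5 and Tek of endothelium and all 4 of skeletal muscle did not pass the filter. In wild-type cells Krt8 was not well above background, and deletion-mutant cells had at least 2.79-fold more. The call on Krt8 was lost with no filter on dim probes. Of the leukocyte markers Itgam was lower (-0.92), a call lost with the mean of its probes, and Cd68 (-0.10) and Cd3e (-0.10) did not pass. Of the endothelial markers Pecam1 was lower (-0.40) and Kdr did not pass (-0.03). The call on Pecam1 was lost under quantile normalization, with no filter on dim probes and without either wild-type array. The part of these markers in the repair gene result was not tested.

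The scaling of the arrays shifted all features together and the repair genes with them. The median of all features ran from -0.13 when arrays were scaled to the detected probes to 0.25 under median scaling, and that of the tested repair genes from 0.41 under the former to 0.79 under the latter. Of all features past the threshold, 58.9% were higher here, 73.5% under median scaling, 65.9% under spike-in scaling and 38.9% under scaling to the detected probes, while for the repair genes these shares were 91.8, 94, 92 and 87%. Of the repair genes, 39 were higher under all 6 other scalings and background corrections. The count of genes that rose at least 2-fold was less steady: 17 became 8 under scaling to the detected probes and 9 under normexp background correction.

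**Figure D5:**
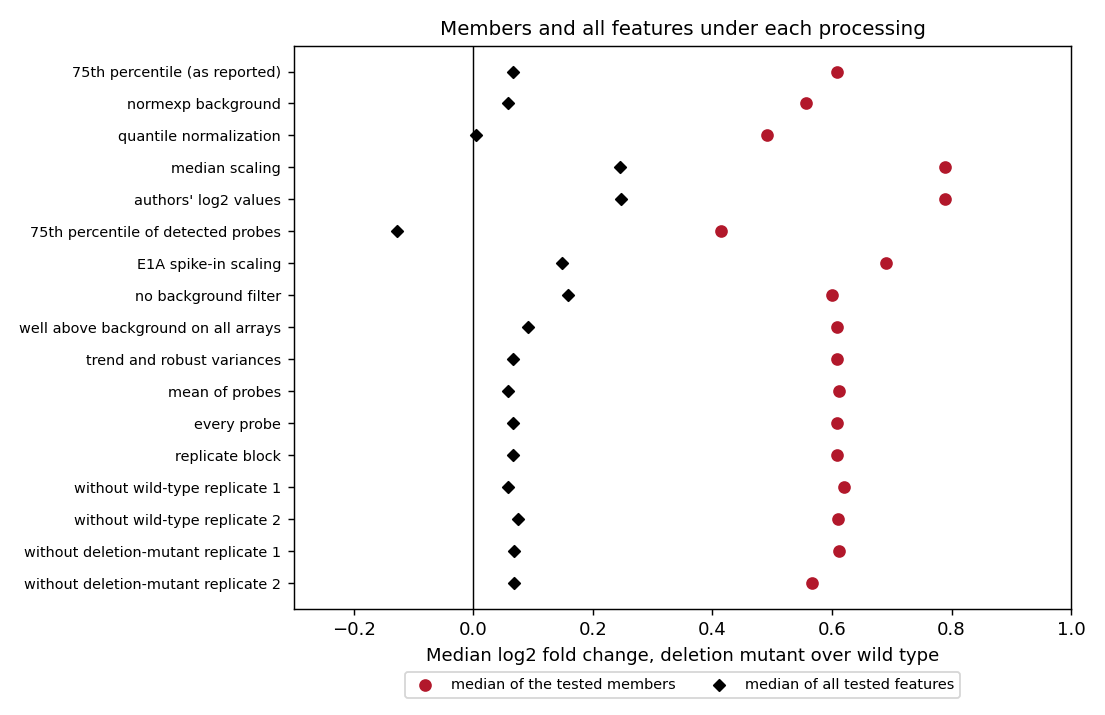
Median log2 fold change (deletion mutant over wild type, horizontal axis) of the tested repair genes (red circles) and of all tested features (black diamonds) under each way of processing the arrays. The circles lie between 0.41 and 0.79 and the diamonds between -0.13 and 0.25, with the circle to the right of the diamond under each setting.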

How the data were processed

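RNA was measured on 1-colour Agilent arrays (design 028005) with Cy3, 2 arrays per group. Per the file headers, the deposited text files hold intensity on a linear scale with the background subtracted and the trend across the array removed (Feature Extraction 10.10.1.1, protocol GE1_1010_Sep10), with probe positions on mm9. The authors also deposited log2 values, which differed from the log2 of the processed signal by a fixed amount on each array (within 0.01 for 100% of probes), so their scale was known. Their own test was not given in the sources used. The arrays' number, 2 per group, limits the precision.

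Control spots and spots marked as uneven (116 to 142 per array) were left out. The log2 processed signal minus the array's 75th percentile was fitted with limma 3.58.1 (lmFit, eBayes; R 4.3.3, data.table, version 1.17.8) across 18093 features, with Benjamini-Hochberg adjustment and a threshold of 0.05. The residual degrees of freedom were 2, and the median SE was 0.0735. The fit was tested on simulated data. Promoters and figures used Python 3.11.15 with pandas 2.3.3 and matplotlib 3.10.9.

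The 57 genes, their groups and the list of further repair genes were chosen with earlier results of these data known. Named were Brca1, up to 4 genes per group with the largest change past the threshold, every gene that fell, did not pass or lay at background, and up to 2 further genes per group and direction; a few genes that this rule or the marker lists would name are not reported here. A bound ("at least") sets the brighter group's mean against the dimmer group's, raised on each array to the lowest signal well above background. Alternatives were other background corrections, scalings, dim-probe filters, variance models, probe summaries, a replicate block and each array left out. The replicate number of each array matched its row on the slide, and the main fit did not pair arrays by it. Promoters of Rad54b, Rad21, Rad50, Nbn, Rbbp8, Exo1, Wrn, Xrcc2, Fancd2, Xpc and Prkdc were not searched. Of the further genes, Claspn and Paxx did not match a name on the array, and Fan1, Neil2 and Uimc1 did not pass the filter. Exon and intron positions of probes were not analysed here.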

Additional observations from a re-analysis of the deposited data

How the results depend on the processing

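Of the 54 tested repair genes, none that passed turned direction under any of the 16 alternatives; of those that did not pass, Prkdc changed sign under median scaling and the authors' values and Fancc with the mean of its probes. Between 40 and 47 were higher and 3 to 6 lower under the alternatives that kept the filter on dim probes. With no filter 57 genes were tested and 37 were higher, 36 of them among the 45, and the calls on Rad52, Nbn, Wrn, Xrcc3, Fance, Msh3, Lig3, Ercc2, Xrcc4, Atr and Atrip were lost. Genes at least 2-fold higher fell from 17 to 9 under normexp background correction and to 8 under scaling to the detected probes (their 75th percentile). Of the further repair genes, 63 higher became 41 with no filter on dim probes. Their 10 lower became 6 with the authors' log2 values, 18 with the detected probes and 4 with no filter. With 1 array left out, the repair genes had 40 to 43 higher, 3 to 4 lower and 14 to 17 at least 2-fold higher, and the further genes 47 to 56 higher and 6 to 9 lower, the lowest without wild-type array 1. The replicate number correlated at 0.0472 between same-numbered deviations, and with the number as a block (replicate block) the counts stayed at 45, 4 and 17, with 59 and 10 for the further genes. Across all features, 6260 higher and 4371 lower became 3741 and 2725 of 34816 with no filter, and 4371 lower became 6727 with the detected probes. Calls that changed with a scaling were Wrn (lost under quantile normalization, median scaling and the authors' values), Nbn, Lig3, Ercc2, Xrcc4 and Atrip (lost with the detected probes), Fance, Ercc2 and Atrip (lost under quantile normalization), Xpc and Prkdc (passed as lower with the detected probes), Xrcc5 and Atm (passed as higher under median scaling), and Atr (lost with the mean of its probes, adjusted p = 0.117 by limma). The causes were not tested. Signals near background limit Brca1, Fancg and Chek1.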
